A study of Mus musculus with 2 samples.

Results

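Antibodies are built from heavy and light chains, and the constant gene joined to the rearranged V region decides the antibody's class. Of the 32589 genes listed for the 2 libraries, 9 members were chosen by gene symbol: the heavy chain constant genes *Ighm* (IgM), *Ighd* (IgD), *Ighg1*, *Ighg2b*, *Ighg2c* and *Ighg3* (the IgG subclasses) and *Igha* (IgA), the kappa light chain constant gene *Igkc*, and *Jchain*, which codes for the joining chain of polymeric IgM and IgA. Single-cell RNA-Seq was performed on tumor-bearing mouse livers in which cholangiocarcinoma (CCA) had been induced by hydrodynamic tail vein injection of transposon plasmids for NICD (activated Notch) and myr-AKT (activated AKT), a delivery that reaches hepatocytes. Both groups were shYT animals, in which doxycycline switched on shRNAs against *Yap1* and *Wwtr1* from day 25 through a ubiquitously expressed transactivator, so that the knockdown also reaches cells outside the tumor. The shYT_antiPD1 group additionally received an antibody against PD-1, an inhibitory receptor of T cells, on days 26, 29 and 32, the shYT_PBS group received PBS, and livers were taken on day 33. The comparison asks how the antibody genes differed when immune checkpoint blockade was added to YAP/TAZ depletion. Each group had 1 library, so no test between groups was possible, every difference describes these libraries, and every interval (95%) covers counting error only.

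Naive B cells carry IgM and IgD on the surface, which are spliced from the same transcript over *Ighm* and *Ighd*. Class switching replaces them by an IgG or IgA constant gene further along the chromosome. Plasma cells mostly make heavy chain mRNA without the membrane exons, secrete their antibody and devote much of their mRNA to it. Free antibody mRNA from broken plasma cells therefore reaches the barcodes of other cells, which is why the other cell classes were counted too. In mice, *Ighg2c* is the IgG2 gene of C57BL/6 and related strains, where it takes the place of *Ighg2a*.

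The heavy chain genes lie on the minus strand of chromosome 12 (GRCm38), from *Ighm* (113418558 to 113422730) and *Ighd* (113406604 to 113416324) through *Ighg3* (113356224 to 113361232), *Ighg1* (113325240 to 113330523), *Ighg2b* (113302965 to 113307933) and *Ighg2c* (113285325 to 113288932) to *Igha* (113254830 to 113260236). *Igkc* is on the plus strand of chromosome 6 (70726435 to 70726966) and *Jchain* on the minus strand of chromosome 5 (88519809 to 88527891). The coding stretches below are shown because they carry the differences between the isotypes on which the results turn. The secretory tailpieces of IgM and IgA end the last constant exon of the secreted form and hold the cysteine to which the joining chain is linked. They lie at chr12:113420870-113420928 and chr12:113258771-113258829 and are printed without the stop codon, with the in-frame cysteine codon in capitals.

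Ighm: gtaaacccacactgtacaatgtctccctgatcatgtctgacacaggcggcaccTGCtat
Igha: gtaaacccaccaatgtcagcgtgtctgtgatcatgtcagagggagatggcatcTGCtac

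The 4 IgG genes have no such tailpiece, and they differ from each other most visibly in the hinge exon, whose cysteines join the heavy chains. The hinge exons lie at chr12:113329844-113329882 (*Ighg1*), chr12:113307261-113307326 (*Ighg2b*), chr12:113288263-113288325 (*Ighg2c*) and chr12:113360529-113360576 (*Ighg3*), all on the minus strand, with in-frame cysteine codons in capitals.

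Ighg1: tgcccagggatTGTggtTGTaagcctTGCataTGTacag
Ighg2b: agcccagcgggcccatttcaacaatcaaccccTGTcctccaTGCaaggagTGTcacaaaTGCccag
Ighg2c: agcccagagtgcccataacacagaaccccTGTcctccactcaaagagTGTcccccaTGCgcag
Ighg3: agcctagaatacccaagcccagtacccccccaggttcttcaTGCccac

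The hinge exons ranged from 39 bases with 4 cysteine codons in *Ighg1* to 66 bases with 4 in *Ighg2b*, and *Ighg3* had only 1. Over the whole coding sequence of the secreted form, *Ighg2b* and *Ighg2c* were 85.7% identical, while the other IgG pairs were between 74.1% and 76.3% identical. Reads shared between *Ighg2b* and *Ighg2c* could thus be assigned to either gene, and how the counting software handled such reads is not given in the sources used here. The IgG genes were therefore counted both singly and together.

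The PBS library held 121713441 UMIs (unique molecular identifiers, counted transcripts) in 19397 barcodes and the anti–PD-1 library 100807037 in 19451. Cells were kept if 500 to 5000 genes were detected and no more than 10% of UMIs were mitochondrial, which left 15531 and 16360 cells with a median of 3159 and 2990 UMIs. The libraries stood apart in one respect that the labels do not mention. *Xist*, the RNA that silences an X chromosome in female cells, had 18452 UMIs in the PBS and 11 in the anti–PD-1 library, and 4 Y-linked genes had 3113 and 15323, so the PBS library mixes cells of both sexes and the anti–PD-1 library is almost entirely male. Results that rest on this are also given for Y-only cells, those with UMIs of a Y-linked gene but none of *Xist*. The libraries shared 219 barcode sequences. Which shRNA line was used, the sex, the batch and how many animals entered each library are not given in the labels. The study's methods state that mice of both sexes were used, and a legend gives a number of animals per group for its T cell maps, which was not tied to cells here.

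B and plasma cells were gated with 7 marker genes each, none of them a member, and a cell joined the class with the largest share of its markers detected, with at least 3. The B gate held 992 PBS and 1682 anti–PD-1 cells, and its defining markers *Cd79a* and *Ms4a1* were detected in 96.7% and 80.4% of PBS and 96.7% and 85.1% of anti–PD-1 cells. In the plasma gate, with 81 PBS and 52 anti–PD-1 cells, *Xbp1* was detected in 100% of cells of both libraries and *Derl3* in 95.1% and 98.1%, whereas *Sdc1* reached 64.2% and 73.1% and *Tnfrsf17* 45.7% and 36.5%. The B gate took 6.39% of the PBS library (6.01% to 6.78%) and 10.3% of the anti–PD-1 library (9.82% to 10.8%), and the plasma gate 0.522% (0.414% to 0.648%) and 0.318% (0.237% to 0.417%). At the threshold of exactly 3 markers lay 110 PBS and 162 anti–PD-1 cells of the B gate and 2 and 0 of the plasma gate. Cells that also had at least 3 markers of another class numbered 146 PBS and 436 anti–PD-1 in the B gate. In the plasma gate they numbered 43 and 44, of which 31 and 24 carried B cell markers, 13 and 22 monocyte/macrophage markers, 3 and 18 Kupffer cell markers and 1 and 15 neutrophil markers. A list of stress genes that tissue dissociation can induce was also higher as a sum in the anti–PD-1 library. Whether dissociation was the source was not tested. The summed level of that list of 14 genes went from 3686 to 6408 CPM (UMIs per 1000000 UMIs of the class) in B-gated cells, where 4 of 14 were past 2-fold, and from 1069 to 2542 CPM in plasma-gated cells, where 10 of 14 were. Of all genes with at least 20 UMIs in the class, 1.55% were higher by over 2-fold in B-gated and 5.22% in plasma-gated cells. The part of these differences in the results below was not tested.

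Most antibody transcripts sat in very few cells. The plasma gate held 65.0% of all member UMIs of the PBS library and 60.5% of those of the anti–PD-1 library, against 3.60% and 9.32% in the far more numerous B-gated cells. Within plasma-gated cells the members took 56.1% of PBS UMIs (56.0% to 56.1%) and 47.9% of anti–PD-1 UMIs (47.8% to 48.0%). Per cell the share ranged from 6.23% to 75.5% around a median of 59.2% in PBS, and from 7.68% to 73.7% around a median of 54.5% with anti–PD-1, so the libraries overlapped over nearly their whole range. In Y-only plasma-gated cells (10 and 36) the order turned, with a difference of 2.22 percentage points in favor of anti–PD-1. In B-gated cells the members took 1.70% and 1.48% of UMIs. The members include no lambda constant gene. With all immunoglobulin genes and *Jchain* counted, V, D and J segments included, the share in plasma-gated cells was 61.6% in PBS and 55.5% with anti–PD-1.

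**Figure D1:**
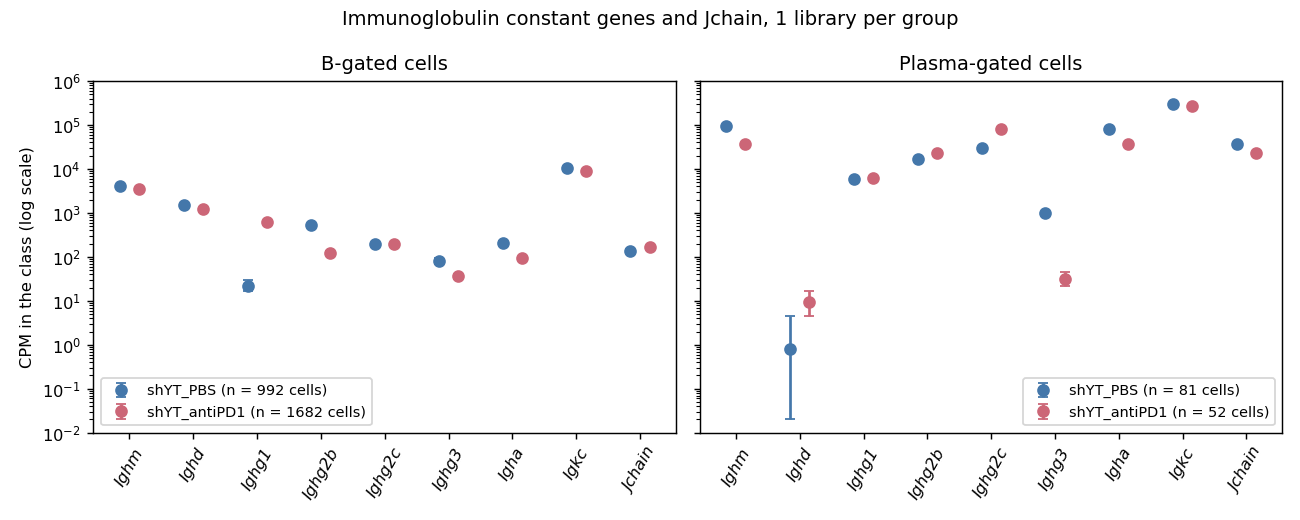
Level of each member in B-gated (left) and plasma-gated (right) cells in CPM on a log axis, with exact Poisson intervals, for shYT_PBS (blue) and shYT_antiPD1 (red), 1 library each. In plasma-gated cells *Ighm*, *Igha* and *Ighg3* sit lower and *Ighg2c* higher with anti–PD-1, while in B-gated cells *Ighm*, *Ighd* and *Igkc* nearly coincide.

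In plasma-gated cells *Ighg2c* was higher and *Ighm*, *Igha* and *Ighg3* were lower in the anti–PD-1 library. Ratios are given as log2 of anti–PD-1 to PBS, with 5 CPM added to both levels. *Ighg2c* went from 29593 CPM (36592 UMIs) to 80306 CPM (86599 UMIs), a log2 ratio of 1.44 (1.42 to 1.46), or 2.71-fold. *Ighm* went from 92583 to 36959 CPM (−1.32, −1.34 to −1.31), or 2.50-fold lower. Over 15 alternative settings of the processing, the ratio lay between 1.22 and 4.08 for *Ighg2c* and between −5.46 and −1.29 for *Ighm*. Several of these settings left the number of plasma-gated cells at 81 and 52. *Igha* went from 80674 to 36676 CPM (−1.14, −1.15 to −1.12). This call depended on the cells used, since *Igha* was at 2.76 (2.67 to 2.86) in Y-only cells, of which PBS had 10, and at −0.22 (−0.27 to −0.17) without cells that also passed the gate of another class. These 3 genes were each carried by many cells, the richest cell holding at most 22.5% of a gene's UMIs in either library.

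The other members of the plasma gate were either closer between the libraries or set by 1 cell. *Ighg3*, the IgG subclass next to *Ighd* on the chromosome, went from 1238 to 34 UMIs (log2 ratio −4.78), but 95.5% of its PBS UMIs came from 1 cell. *Ighg2b* went from 16449 to 23295 CPM (0.50, 0.48 to 0.53), and without cells that also passed the gate of another class it was at 0.098 (0.041 to 0.15). In Y-only cells it was at 11.7 (9.20 to 11.8), a value that depends on the 5 CPM added, as *Ighg2b* led 0 of the 10 PBS cells. *Ighg1* was at 5880 and 6292 CPM (0.10, 0.05 to 0.15), with 90.4% of the anti–PD-1 UMIs in 1 cell. *Igkc* was at 296504 and 272099 CPM (−0.12), and *Jchain* at 37836 and 23133 CPM (−0.71, −0.73 to −0.69), with −0.078 (−0.13 to −0.026) in Y-only cells. *Ighd* had 1 and 10 UMIs, under the minimum of 20 over both libraries for a gene to be counted, and no ratio was taken.

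With that minimum, 1 of 8 members counted in plasma-gated cells was higher with anti–PD-1 by over 2-fold, beside 311 of 5956 genes (5.22%), and 3 of 8 were lower, beside 122 genes (2.05%). The median log2 ratio was −0.42 for the members and 0.15 for all genes counted. Since the members share 1 total and each plasma cell has 1 heavy chain gene, their ratios are not independent of each other. Y-only cells gave 5 higher and 1 lower members, from 10 PBS cells.

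Sums over a class weigh cells by their UMIs, so each plasma-gated cell was next assigned to the heavy chain gene that led its own UMIs. *Ighm* and *Ighd* together counted as IgM. All 81 and 52 cells could be called, and within a cell the called isotype held a median of 99.9% of heavy chain UMIs in PBS and 99.8% with anti–PD-1, with a minimum of 96.1% and 94.9%. In the PBS library 39 cells were IgM (48.1%, 36.9% to 59.5%), 24 were IgA (29.6%, 19.99% to 40.8%) and 18 were IgG (22.2%, 13.7% to 32.8%). In the anti–PD-1 library 10 were IgM (19.2%, 9.63% to 32.5%), 12 were IgA (23.1%, 12.5% to 36.8%) and 30 were IgG (57.7%, 43.2% to 71.3%). IgG was thus the largest class of the plasma gate with anti–PD-1 and had the lowest count in PBS. The IgG share was 35.5 percentage points higher (17.5 to 51.5) and the IgM share 28.9 points lower (−43.8 to −11.5). The interval of the IgA difference (−6.55 points, −21.9 to 10.2) includes 0. Without cells that also passed the gate of another class, which left 38 PBS and 8 anti–PD-1 cells, the IgG difference was 38.8 points (−2.65 to 70.3) and the IgM difference −30.3 points (−57.4 to 13.3), both with intervals that include 0.

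Among the subclasses, *Ighg2c* led 10 PBS cells (12.3%) and 20 anti–PD-1 cells (38.5%), a difference of 26.1 points (10.1 to 41.9). *Ighg2b* led 4 cells (4.94%) and 8 cells (15.4%), a difference of 10.4 points whose interval includes 0 (−0.71 to 23.6). *Ighg1* led 3 and 2 cells. *Ighg3* led 1 PBS cell and 0 of 52 anti–PD-1 cells, for which a limit of 3 counts gives 5.77% and the exact interval an upper bound of 6.85%. *Ighd* led 0 of 81 PBS cells (3.70% by the limit of 3 counts, 4.45% by the exact bound) and 0 of 52 anti–PD-1 cells.

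**Figure D2:**
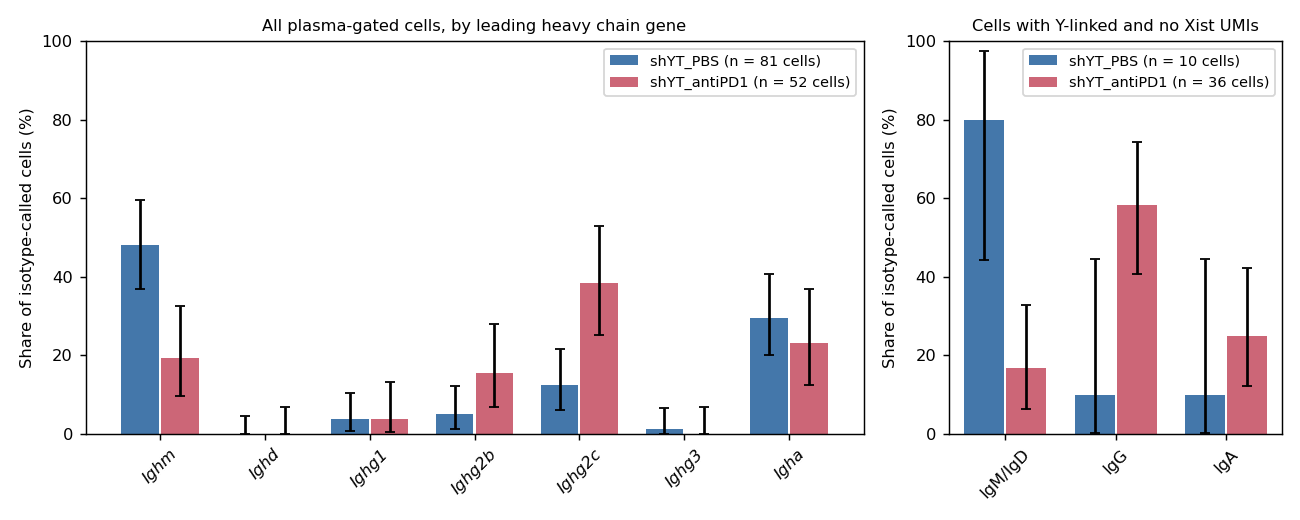
Share of isotype-called plasma-gated cells led by each heavy chain gene (left, 81 PBS and 52 anti–PD-1 cells) and share of each isotype among Y-only cells (right, 10 and 36 cells), as bars with exact binomial intervals. *Ighm* leads 48.1% of PBS cells and *Ighg2c* 38.5% of anti–PD-1 cells, and among Y-only cells IgM leads in PBS and IgG with anti–PD-1.

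The libraries' different sex mix bears on these shares. Of the 10 Y-only PBS cells, 8 were IgM, 1 IgG and 1 IgA, and of the 36 Y-only anti–PD-1 cells 6 were IgM, 21 IgG and 9 IgA. The IgG difference was 48.3 points in these cells (9.61 to 67.2), the IgM difference −63.3 points (−83.6 to −24.2) and the IgA difference 15 points (−21.8 to 34.8), so that IgM and IgG kept their direction and IgA changed it. *Ighg2c* alone led 1 of the 10 and 14 of the 36 cells, a difference of 28.9 points whose interval includes 0 (−9.04 to 49.0). In the 51 PBS cells with *Xist* and no Y-linked UMIs, 21 were IgM, 14 IgG and 16 IgA. IgM thus led 41.2% of them (27.6% to 55.8%) and 80% of the Y-only PBS cells (44.4% to 97.5%). The IgM share therefore also differed widely within the PBS library, with overlapping intervals.

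Isotypes were also counted without the gate. When every kept cell with at least 500 member UMIs was taken, whatever its gate, 127 PBS and 79 anti–PD-1 cells qualified, of which 80 and 52 were in the plasma gate and 118 and 70 had at least 3 plasma cell markers. IgG led 37 of these PBS cells (29.1%, 21.4% to 37.9%) and 49 of the anti–PD-1 cells (62.0%, 50.4% to 72.7%). IgM led 56 (44.1%) and 16 (20.3%), and IgA 34 (26.8%) and 14 (17.7%), so that in PBS IgG was here above IgA. *Ighg2c* alone led 20 and 31 of them. Of the cells outside the plasma gate, 19 PBS and 9 anti–PD-1 cells had no gate, 13 and 3 had tied gates, 3 and 3 were in the B gate and 12 and 12 in the gate of another class.

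Clonal relatives share V segments, so a few expanded clones could weigh on the shares. The light chain V segment was taken only from the kind of light chain, kappa or lambda, that led the cell. The leading heavy and light chain V segments could be read in 80 PBS and 50 anti–PD-1 plasma-gated cells, which showed 59 and 43 distinct pairs. Pairs seen more than once covered 31 PBS cells (38.8%) and 13 anti–PD-1 cells (26%). The commonest PBS pair, *Ighv1-22* with *Igkv6-15*, was found in 7 cells, of which 6 were IgA and 1 IgG. The next PBS pair, *Ighv6-3* with *Igkv5-43*, was found in 4 cells, all IgM. Most of these 4 cells were Y-only. The 8 Y-only PBS cells called IgM thus include possible relatives, and the Y-only shares above count each cell. The commonest anti–PD-1 pair, *Ighv9-3* with *Igkv4-63*, was found in 3 cells, all IgM. In PBS 5 pairs appeared with more than 1 isotype, and with anti–PD-1 0 did. A shared pair is not proof of a shared clone, since the joining sequence was not read, and 3 pairs occurred in both libraries. With each pair counted once per isotype, the IgG difference was 37.98 points (18.2 to 55.0), the IgM difference −34.4 points and the IgA difference −3.54 points.

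The lambda shares of the libraries had overlapping intervals. Lambda-led cells were 8 of 81 PBS (9.88%, 4.36% to 18.5%) and 7 of 52 anti–PD-1 plasma-gated cells (13.5%, 5.59% to 25.8%), and 8.71% and 8.64% of B-gated cells with a called light chain. The lambda constant genes of the plasma gate differed in opposite directions, with *Iglc2* going from 3879 to 18901 UMIs (log2 ratio 2.48) and *Iglc3* from 7074 to 687 UMIs (−3.16), in sums that rest on those few lambda-led cells. *Iglc1* was at 25949 and 38163 CPM (0.56).

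*Jchain* was detected in every plasma-gated cell of every isotype, from 8 to 3414 UMIs per cell in PBS and from 4 to 1645 with anti–PD-1. Relative to the heavy chain, IgM cells had a median of 16.3 *Jchain* UMIs per 100 heavy chain UMIs in PBS and 13.0 with anti–PD-1, and IgA cells had 18.2 and 20.1. IgG cells had fewer, with a median of 5.31 (1.24 to 19.2) and 9.07 (0.32 to 29.3). The ranges of IgG and IgA cells overlapped in both libraries, IgA cells covering 5.10 to 32.4 in PBS and 13.6 to 27.7 with anti–PD-1. Within the anti–PD-1 library, all 12 IgA cells lay above the IgG median. The lower *Jchain* sum of the anti–PD-1 plasma gate, which was nearly equal between the libraries in Y-only cells, went with more cells of the isotype that had the least *Jchain* in both libraries, and the part of this in the sum was not tested.

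**Figure D3:**
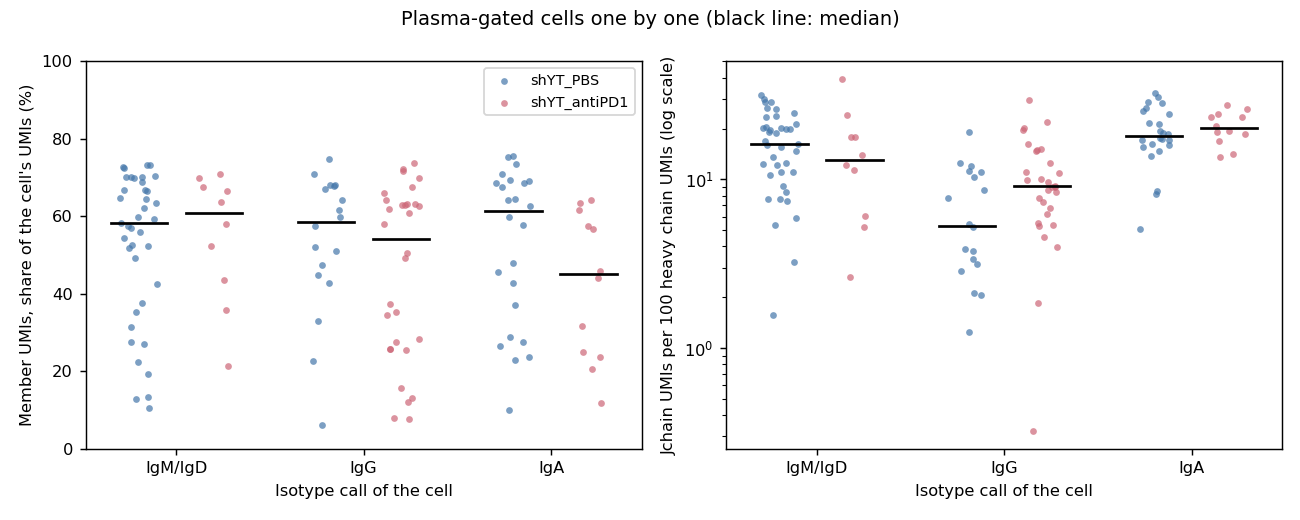
Each point is 1 plasma-gated cell, by isotype call and library, and black lines are medians. The left panel gives the share of the cell's UMIs held by the 9 members (medians from 45.0% to 61.3%), and the right panel *Jchain* UMIs per 100 heavy chain UMIs on a log axis, where IgG cells have the lowest medians (5.31 and 9.07).

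The share of UMIs given to the members differed little between isotypes within PBS, with medians of 58.2% in IgM, 58.6% in IgG and 61.3% in IgA cells. With anti–PD-1 the medians were 60.9%, 54.2% and 45.0%. The members include no lambda constant gene, so the light chain of lambda-led cells is left out of these shares. Of the IgA cells, 1 of 24 in PBS and 4 of 12 with anti–PD-1 were lambda-led. The part of this in the medians was not tested. Captured heavy chain UMIs per cell ran from 174 to 10539 in PBS and from 564 to 13947 with anti–PD-1, around medians of 3093 and 3409. The richest cell therefore weighed more than a median cell in the class sums, and counts of cells do not share this weighting.

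In B-gated cells *Ighm*, *Ighd* and *Igkc* differed by less than 2-fold between the libraries. *Ighm* was at 4129 CPM in PBS and 3485 with anti–PD-1 (log2 ratio −0.24, −0.28 to −0.21), *Ighd* at 1495 and 1203 CPM (−0.31, −0.37 to −0.25) and *Igkc* at 10237 and 8846 CPM (−0.21, −0.23 to −0.19). The median of all genes counted in B-gated cells was −0.13, and the 3 intervals lay below it. In Y-only cells *Igkc* was closer between the libraries, at −0.073 (−0.129 to −0.016). There *Ighm* was at −0.32 (−0.40 to −0.23) and *Ighd* at −0.45 (−0.60 to −0.30). The per-cell median was 7 and 8 UMIs for *Ighm*, 3 and 3 for *Ighd* and 16 and 20 for *Igkc*. Both *Ighm* and *Ighd* were detected in 83.8% of PBS and 85.3% of anti–PD-1 B-gated cells, and the library sums held 2.76 and 2.90 *Ighm* UMIs per *Ighd* UMI.

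Of the switched heavy chain genes in B-gated cells, *Ighg1* and *Ighg2b* had large ratios that rested on 1 cell. *Ighg1* went from 50 to 3289 UMIs (log2 ratio 4.50), and 3127 of the anti–PD-1 UMIs (95.1%) were in 1 cell with 5 plasma cell markers. Without the cell richest in members of each library the ratio was 0.36 (−0.03 to 0.75), and without cells that also passed the gate of another class it was −0.025. *Ighg2b* went from 1179 to 675 UMIs (−2.02), of which 851 were in 1 PBS cell, and without the richest cells the ratio was −0.22. *Ighg3* had 179 and 194 UMIs (−1.04) and *Igha* 467 and 497 (−1.13, −1.30 to −0.95). The richest cell held 22.9% and 13.4% of the *Ighg3* UMIs and 9.42% and 12.9% of the *Igha* UMIs. With equal weight per cell *Igha* was at −0.76 and *Ighg3* at −0.055, and *Ighg3* was at −0.16 (−0.94 to 0.69) in Y-only cells. *Ighg2c* had 432 and 1056 UMIs (0.03, −0.13 to 0.19), a ratio that depended on the processing. It was 0.85 (0.47 to 1.23) after thinning to 1000 UMIs and 0.59 with equal weight per cell, but −0.33 (−0.52 to −0.14) without cells that also passed another gate. After the neutrophil level was subtracted it was −4.81, a value set by the 5 CPM added. The anti–PD-1 level was higher in neutrophils (1042 CPM, the larger part in 1 cell) than in B-gated cells (196 CPM). *Jchain* had 308 and 898 UMIs (0.28), with 59.4% and 44.5% in 1 cell of each library. In all, 1 of 9 members was higher by over 2-fold in B-gated cells, beside 177 of 11443 genes (1.55%), and 3 of 9 were lower, beside 206 genes (1.8%). When every cell was given equal weight 0 of 9 were lower.

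Called cell by cell, switched B-gated cells were rare in both libraries. Of the B-gated cells with at least 3 heavy chain UMIs and a leading isotype, 923 of 966 PBS cells were IgM/IgD, 31 IgG and 12 IgA, and 1589 of 1642 anti–PD-1 cells were IgM/IgD, 48 IgG and 5 IgA. The switched share was 4.45% (3.24% to 5.95%) and 3.23%, a difference of −1.22 points whose interval includes 0 (−2.92 to 0.33). Without cells that also passed the gate of another class it was −2.24 points (−4.04 to −0.61), an interval that leaves out 0. In Y-only B-gated cells the difference was 0.96 points (−4.76 to 4.17). IgA-led cells were 0.94 points fewer with anti–PD-1 (−1.88 to −0.22), from 12 and 5 cells, and in Y-only cells the interval of this difference (−1.36 points, −6.10 to 0.46) includes 0. *Ighg2c* led 1.24% and 1.52% of called B-gated cells (difference 0.28 points, −0.78 to 1.21). Whether the plasma-gated and B-gated differences differ from each other was not tested.

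Member UMIs were found in every class of cell, so the same genes were counted in cells that should not make antibody, which are named after their gates. To remove the effect of depth, each cell was thinned to 1000 UMIs for these shares. *Ighg2c* was detected in 3.13% of T cells in PBS and 8.62% with anti–PD-1, in 3.87% and 11.03% of neutrophils and in 3.83% and 10.7% of tumor/biliary epithelial cells. In B-gated cells the same share was 4.94% and 11.5%, close to that of neutrophils, so these shares were not read as expression. The summed *Ighg2c* level was higher in B-gated cells than in neutrophils in PBS (192 and 56.7 CPM) and lower with anti–PD-1 (196 and 1042 CPM, with 56.7% of the neutrophil UMIs in 1 cell), and 12 PBS and 25 anti–PD-1 B-gated cells were led by *Ighg2c*. The *Jchain* share was read likewise, *Jchain* being detected in 4.404% and 4.36% of thinned B-gated cells against 5.02% and 4.51% of neutrophils. *Igha* was detected in 8.06% and 5.21% against 5.10% and 5.17%, so it was above the neutrophil share in PBS and near it with anti–PD-1. *Igkc* was detected in 19.2% and 31.1% of T cells and in 24.0% and 37.99% of neutrophils, against 94.5% and 95.2% of B-gated cells. *Ighd* was detected in 72.8% and 68.3% of B-gated cells against 0.73% and 1.66% of T cells and 1.07% and 2.93% of neutrophils. The median depth before thinning was 1790 and 2536.5 UMIs in B-gated cells, 2780 and 3676 in T cells and 1606 and 2122.5 in neutrophils.

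The make-up of this background also differed between the libraries. Only cells with fewer than 100 member UMIs were used for it, which leaves out antibody-rich cells that passed another gate. In the other gates pooled, without tied and ungated cells, *Ighg2c* made up 10.2% (9.80% to 10.6%) of 20117 heavy chain UMIs in PBS and 24.4% (23.9% to 24.9%) of 27351 with anti–PD-1. *Ighm* made up 64.2% and 45.4%, and *Igha* 15.4% and 11.2%. *Ighg2b* made up 5.97% and 8.10%, *Ighd* 2.50% and 4.72%, *Ighg3* 1.03% and 2.69% and *Ighg1* 0.66% and 3.42%. In plasma-gated cells the corresponding shares of heavy chain UMIs were 13.1% and 43.7% for *Ighg2c*, 40.9% and 20.1% for *Ighm* and 35.7% and 19.98% for *Igha*, and *Ighg3*, higher in the anti–PD-1 background, was lower there (0.44% and 0.017%). The background thus had more *Ighm* than the plasma-gated cells of its own library.

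**Figure D4:**
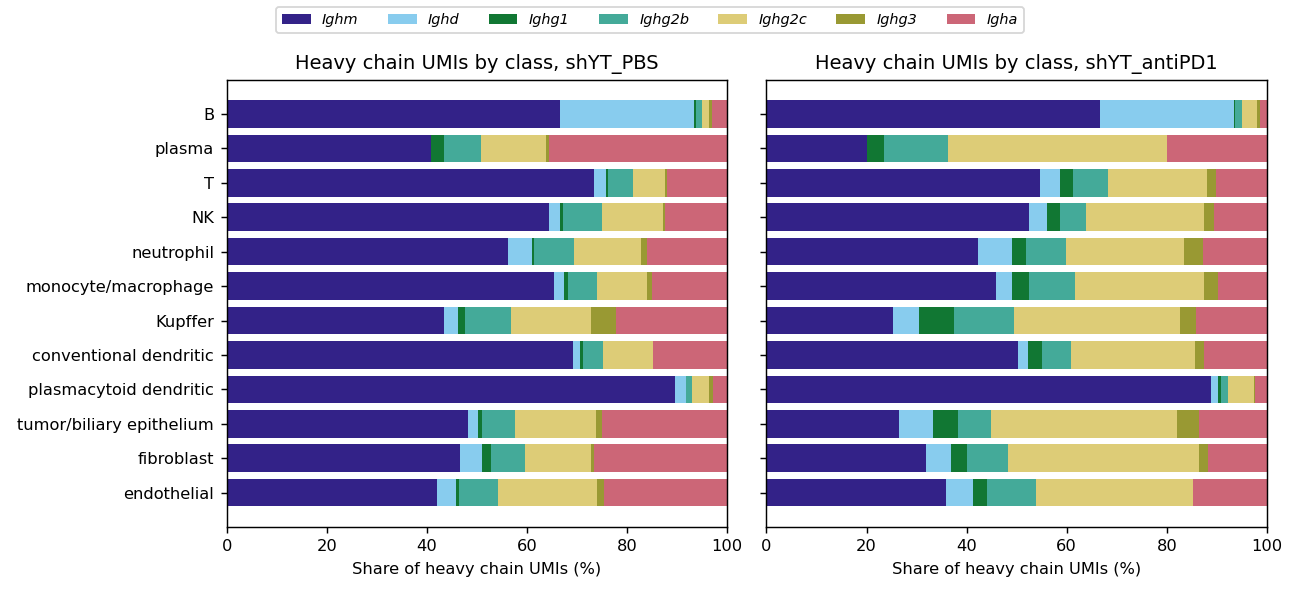
Share of each heavy chain gene among the heavy chain UMIs of 12 gated classes in shYT_PBS (left) and shYT_antiPD1 (right), with cells of fewer than 100 member UMIs except in the plasma gate, where all cells were used. *Ighd* is prominent only in the B gate, *Ighm* fills most of the plasmacytoid dendritic bar (89.6% and 88.8%), and *Ighg2c* takes a larger part with anti–PD-1 in plasma-gated cells (13.1% and 43.7%) and in neutrophils (13.4% and 23.4%).

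Plasmacytoid dendritic cells stood apart among the classes outside the B lineage. *Ighm* made up 89.6% (86.9% to 91.9%) of their heavy chain UMIs in PBS, from 79 cells, and 88.8% with anti–PD-1, from 52 cells, and was detected in 79.7% and 71.2% of these cells after thinning against 23.6% and 21.0% of T cells. There were 0.47 *Igkc* UMIs per *Ighm* UMI in PBS (0.40 to 0.54) and 1.04 with anti–PD-1 (0.90 to 1.19), against 2.12 and 2.22 in B-gated cells. *Ighd* had 14 UMIs (36.01 CPM, 19.7 to 60.4) in PBS and 7 UMIs (22.9 CPM, 9.20 to 47.1) with anti–PD-1, against 13.0 and 22.8 CPM in T cells, 20.1 and 43.6 CPM in neutrophils and 1495 and 1203 CPM in B-gated cells. T cells (0.77 and 1.72) and conventional dendritic cells (0.74 and 1.54) also had fewer *Igkc* UMIs per *Ighm* UMI than B-gated and plasma-gated cells (3.20 and 7.36). NK cells (1.09 and 2.04) and monocytes/macrophages (1.15 and 2.19) did so in PBS, but with anti–PD-1 their intervals (1.86 to 2.23 and 2.09 to 2.30) overlapped that of B-gated cells (2.18 to 2.27). Kupffer cells (2.55 and 5.36) and tumor/biliary epithelial cells (2.53 and 5.76) lay between the B-gated and the plasma-gated cells in both libraries, and neutrophils were at 2.11 and 3.00. The ratio was higher with anti–PD-1 in each of these classes, and least so in B-gated cells. UMIs were not divided by transcript length, so these ratios are of captured molecules.

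**Figure D5:**
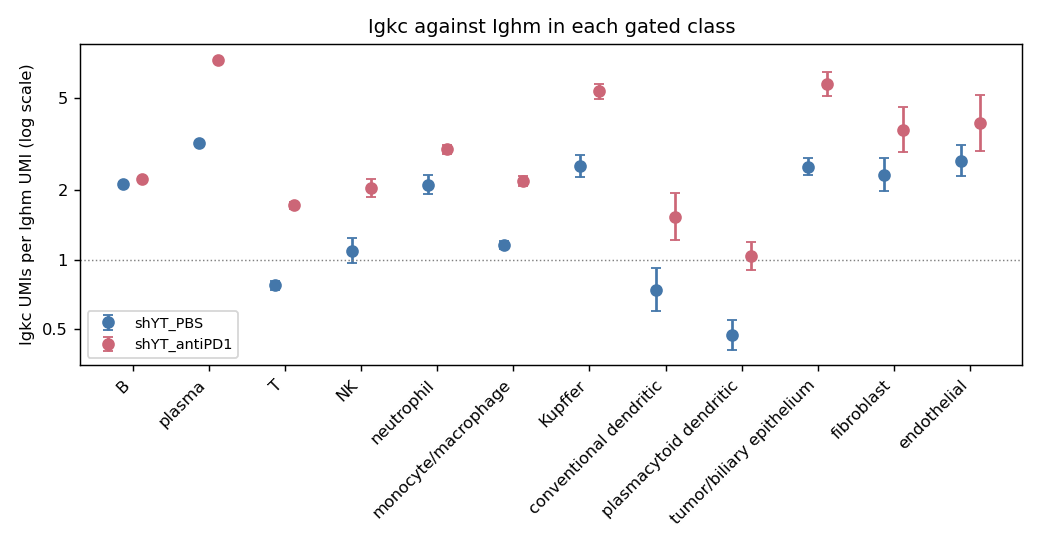
*Igkc* UMIs per *Ighm* UMI in 12 gated classes on a log axis, with counting intervals, for shYT_PBS (blue) and shYT_antiPD1 (red), using cells with fewer than 100 member UMIs except in the plasma gate. Plasmacytoid dendritic cells have the lowest ratios (0.47 and 1.04), plasma-gated cells reach 3.20 and 7.36, and the 2 libraries lie closest in B-gated cells (2.12 and 2.22).

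Genes of class switching and of the germinal center, where B cells mutate their antibody genes, had few UMIs. Of 9 such genes, 2 were higher by over 2-fold in B-gated cells and 0 lower, beside 1.55% and 1.8% of all genes counted. The median log2 ratio of the 9 genes was 0.65, against −0.13 for all genes counted. In B-gated cells *Gcsam*, a germinal center signaling gene, went from 2 to 46 UMIs (log2 ratio 1.20, 0.65 to 1.54). *Bcl6*, the germinal center regulator, was at 48.8 and 52.3 CPM (0.09, −0.20 to 0.39). Among 12 regulators of plasma cells and antibody secretion, 1 was higher in B-gated cells, *Irf4* (84.3 and 183 CPM, 1.07). In plasma-gated cells 0 of 12 passed 2-fold, beside 5.22% of all genes counted that were higher and 2.05% that were lower. There *Irf4* was at 146 and 82.5 CPM (−0.79) and *Txndc5*, a disulfide isomerase of the secretory pathway, at 941 and 549 CPM (−0.77), whereas the chaperones *Hspa5* (0.36) and *Hsp90b1* (0.34) were slightly higher.

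Markers of mature follicular B cells did not pass 2-fold in B-gated cells in either direction (0 of 7), with *Fcer2a* (CD23) at 284 and 263 CPM (−0.11) and *Cr2* (CD21) at 143 and 120 CPM (−0.24). Among 8 genes of memory, B-1 and marginal zone B cells, *Zbtb32* was lower (60 and 48 UMIs, −1.19) and 0 were higher. Of all genes counted in B-gated cells, 1.55% were higher by over 2-fold and 1.8% lower. In plasma-gated cells *H2-DMb2*, a follicular list gene of antigen presentation, had 10 and 25 UMIs, and 0 of 3 counted memory genes passed 2-fold. There 5.22% of all genes counted were higher and 2.05% lower. Of the other constant and surrogate light chain genes in B-gated cells, 1 of 6 was higher, *Igll1*, a surrogate light chain gene of B cell precursors, with 0 and 31 UMIs. Against a floor of 3 UMIs in the PBS sum it was at least 4.32-fold higher.

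Of the genes of survival, help and homing, 1 of 5 counted was higher and 1 lower in plasma-gated cells, beside 5.22% and 2.05% of all genes counted. *Ccr10*, a receptor for chemokines of mucosal epithelium that is typical of IgA plasma cells, went from 81 to 28 UMIs in plasma-gated cells (−1.19, −1.75 to −0.64), and *Cxcr4*, the receptor for CXCL12, from 41 to 89 (1.20, 0.71 to 1.69). The receptor *Tnfrsf13b* (TACI) was at 116 and 64.9 CPM (−0.79). In B-gated cells 1 of 7 counted genes of this list was higher, beside 1.55% of all genes counted. This gene was *Il6*, with 2 and 67 UMIs, and *Il6* was also higher in monocytes/macrophages (0.95 and 69.5 CPM) and Kupffer cells (19.3 and 147 CPM).

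Receptors that bind the members' protein products were mostly expressed by other classes. *Pigr*, which carries polymeric IgA and IgM across epithelium into bile, was at 136 CPM in tumor/biliary epithelial cells in PBS and 334 with anti–PD-1. *Fcmr*, the receptor for IgM, was at 648 and 591 CPM in B-gated cells. *Fcgr2b*, the inhibitory IgG receptor, was at 1065 and 762 CPM in endothelial cells and at 169 and 137 CPM in B-gated cells. *Fcgr4*, an activating receptor for mouse IgG2 antibodies, was at 172 and 387 CPM in monocytes/macrophages, 398 and 588 in Kupffer cells and 165 and 286 in neutrophils. *Fcgr4* was also the 1 receptor of 9 counted that passed 2-fold in B-gated cells (31 and 279 UMIs, 1.60), beside 1.55% of all genes counted that were higher. Of the B-gated cells, 70 PBS and 137 anti–PD-1 cells had at least 3 monocyte/macrophage markers, 13 and 169 had at least 3 neutrophil markers and 16 and 116 had at least 3 Kupffer cell markers.

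Over 24 points (12 gated classes in each library), the genes whose log2 levels were most like those of a member were ranked among 13840 genes, as a description, since classes of 1 library share its free RNA and depth. For *Ighd* these were *Pax5* (Pearson r 0.98, also a gate marker), *Fcmr* (0.97), *Blk* (0.96), *Cr2* (0.94) and *Fcer2a* (0.94). For *Igkc* they were *Gm30211* (0.98), the gate marker *Mzb1* (0.91), *Oosp1* and *Cacna1h* (0.88 each) and the gate marker *Derl3* (0.88). *Jchain* and *Igha* were most like *Derl3*, *Cacna1h*, *Oosp1* and *Prg2*, with r from 0.92 to 0.95. Of 56 V, D and J segments counted, 0 came above the fifth gene of *Ighd*, 12 above that of *Igkc*, 15 above that of *Jchain* and 18 above that of *Igha*. *Pax5*, *Fcmr*, *Blk*, *Cr2* and *Fcer2a* are regulators, signaling genes and receptors of mature B cells, and *Mzb1* and *Derl3* act in the endoplasmic reticulum of antibody-secreting cells.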

How the data were processed

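Libraries were prepared with the Singleron GEXSCOPE kit from digested livers after red cell lysis and removal of debris and dead cells, with no sort gate. The authors deposited raw UMI counts per gene and barcode, made with Cell Scope against mm10, and the labels also name Seurat 4.3. The software version, the annotation and the handling of shared reads are not given in the sources used here. The members and gene lists were chosen with earlier results of these data known. Kept cells (500 to 5000 genes, at most 10% mitochondrial UMIs) joined the class, of 15, with the largest share of its 7 markers detected (at least 3, no tie; plasma also needed *Mzb1* or *Tnfrsf17*), and 1432 PBS and 1420 anti–PD-1 cells joined none, and 633 and 1041 had ties. UMI sums carry exact Poisson intervals, and their log2 ratios (CPM + 5) an interval built from both. Shares carry Clopper-Pearson intervals. A plasma-gated cell needed 20 heavy chain UMIs, and a B-gated cell 3, with 50% in 1 isotype. Named genes outside the members were listed genes past 2-fold with at least 20 UMIs, examples of each list, and the 5 genes most like 4 members. Some genes of these lists are not reported here. Doublets were scored by Scrublet (scanpy 1.11.5). Its automatic threshold marked 0 cells, so Otsu's threshold of the simulated scores (scikit-image 0.26.0), chosen after seeing the data, was used. It marked 2.90% and 2.66% of cells, with 27.1% and 28.0% of simulated doublets above it. Marked cells were kept except in an alternative. Numpy 2.4.6, scipy 1.17.1 and Biopython 1.88 were used. Sequences were read from GRCm38 with its GENCODE annotation. The log2 ratios and their intervals were tested on simulated Poisson sums, which lack the gathering of UMIs in single cells seen here. The gates, isotype calls and V pairs were not tested in this way.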

Additional observations from a re-analysis of the deposited data

Results flagged for a closer look

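*Ighg2b* and *Jchain* differed between the libraries in opposite directions in B-gated and plasma-gated cells. *Ighg2b* had a log2 ratio of −2.02 in B-gated cells and 0.50 in plasma-gated cells. *Jchain* had 0.28 in B-gated cells and −0.71 in plasma-gated cells. Each of these intervals leaves out 0, but they cover counting error only, and the difference between the gates was not tested. In B-gated cells, 1 PBS cell held 851 of 1179 *Ighg2b* UMIs, and 1 cell of each library held 59.4% and 44.5% of the *Jchain* UMIs. Without the richest cells, B-gated cells had −0.22 for *Ighg2b* and 0.68 (0.42 to 0.95) for *Jchain*. In Y-only cells *Jchain* was at 2.13 (1.45 to 2.88) in the B gate and at −0.078 (−0.13 to −0.026) in the plasma gate. *Ighg2b* turned direction in B-gated cells, to 1.56 (0.86 to 2.34) in Y-only cells, so that there it no longer opposed the plasma gate. After subtracting the neutrophil level it was at 3.74, a value set by the 5 CPM added. The PBS sum was higher in neutrophils (1533 CPM) than in B-gated cells (523 CPM), so no direction was read from it. That neutrophil sum rested on 2 cells with at least 100 member UMIs. With all PBS neutrophils *Ighg2b* made up 79.5% of 5275 heavy chain UMIs, and without those 2 cells 7.95% of 1157.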

How the results depend on the processing

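No paired analysis was possible because each group has 1 library. The cause of the changes below was not tested. Without cells passing the gate of another class (846 PBS and 1246 anti–PD-1 B-gated, 38 and 8 plasma-gated), the difference in B-gated share was 5.63 percentage points (3.89 in the main setting), in member share of B-gated UMIs −0.29 (main −0.23) and of plasma-gated UMIs −21.2 (main −8.17), 0 members were higher in B-gated cells, the switched share of B-gated cells differed by −2.24 points (main −1.22), and the log2 ratio of *Ighg1* was −0.025 in B-gated and −9.00 in plasma-gated cells. The ratio of −9.00, from 8 anti–PD-1 cells, depends on the 5 CPM added. Thinned to 1000 UMIs before gating, only 10 and 3 plasma-gated cells remained. The B-gated share differed by 2.72 points, the plasma-gated share by −0.049 (main −0.20), the member share by −0.42 (B) and −15.3 (plasma), IgA by 13.3, IgG by 56.7 (−10.2 to 90.6) and IgM by −70 points (−93.3 to 9.05), 0 members were higher in B-gated cells, and *Ighg3* was at 0.17 there. In Y-only cells the B-gated share differed by 2.60 points, the member share by −0.053 (B) and 2.22 (plasma), the switched share by 0.96, IgA by 15 and IgM by −63.3 points. There 3 members were higher and 1 lower in B-gated cells, 5 and 1 in plasma-gated cells, and log2 ratios were 1.56 for *Ighg2b* in B-gated cells and 3.24 for *Ighg3*, 2.76 for *Igha* and 0.12 for *Igkc* in plasma-gated cells. With 200 to 5000 genes the B-gated share differed by 3.27 points, and without doublets the member share of B-gated UMIs by −0.25. Without the richest cell 0 members were higher in B-gated cells. After subtracting the neutrophil level 2 were higher there, with *Ighg2b* at 3.74 and *Jchain* at −3.40, values that depend on the 5 CPM added. With equal weight per cell 0 were lower there, and *Ighg1* was at −0.87 in plasma-gated cells, where it was at −0.11 without immunoglobulin in the denominator. With no minimum of UMIs 2 members were higher in plasma-gated cells. The IgG difference among plasma-gated cells lay between 32.9 and 56.7 points and the IgM difference between −70 and −23.8 over 13 alternatives. In 2 of these, thinning and leaving out cells passing 2 gates, both intervals include 0. Several of the others could hardly move the shares. The plasma gate held 81 and 52 cells with a gate at 2 markers, without doublets, at a 20% mitochondrial limit and without an upper gene limit. A leading isotype at 80% or a lower isotype minimum could not change calls either, since every cell was already called with at least 94.9% purity. With 1 library per group, differences between animals and preparations cannot be told apart from the treatment, and at 81 and 52 cells a subclass led by a few cells is not resolved.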
